A study of Rattus norvegicus with 15 samples.

Results

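The genes described here are 9 genes that interferon induces in mammalian cells, grouped with Bst2 and chosen by the gene name printed for each probe: Bst2, Ifit1, Ifit2, Ifit3, Isg15, Mx1, Mx2, Oas1a and Irf7. They are carried by 11 of the 45598 probes on a rat expression array. They were chosen with earlier results of these same arrays in view, in which Bst2 was highest in 4c cells, so their differences between DNA contents are given as a description, and no test of those differences is used as support. Of the 9 genes, 7 passed the filter, which asked for a signal well above background on at least 5 of 15 arrays. Ifit1 was well above background on 0 arrays and Ifit3 on 1, the 2c array of experiment 1.

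The arrays measured RNA of hepatocytes from female Wistar rats, stained with Hoechst33342 (a DNA dye) and separated on a flow sorter into cells with a 2c, 4c or 8c DNA content. Each of 5 independent experiments gave 1 array per fraction, so n = 5 for each of 2c, 4c and 8c. No group carried an engineered allele or a drug treatment by the labels. The animals were 12 weeks old in experiment 1, 14 in experiment 2, 6 in experiment 3, 5 in experiment 4 and 6 in experiment 5. The number of animals per experiment and the gates are not given in the sources used here, and DNA content alone does not tell a 4c tetraploid cell from a 2c cell that has copied its DNA.

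Type I interferons signal through a cell-surface receptor and Jak kinases to transcription factors that bind a DNA element found before many antiviral genes. The products then act at different steps of an infection. Bst2, also called tetherin, holds budding enveloped virus particles at the cell surface. Ifit proteins bind viral RNA, Oas enzymes make an RNA-degrading signal when they meet double-stranded RNA, Mx proteins are dynamin-like GTPases that block incoming virus, Isg15 is a ubiquitin-like modifier and Irf7 is the transcription factor that amplifies interferon production. Mouse Bst2 is also an antigen of plasmacytoid dendritic cells, and in the liver hepatocytes, Kupffer cells and endothelial cells can all respond to interferon.

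The promoters of Bst2, Oas1a and Irf7 are shown because Bst2 differed in pattern from Oas1a and Irf7 below, while each holds a match to the same short motif. Each run is the 250 bases before the RefSeq gene start on the GRCr8 assembly, written 5′ to 3′ on the gene's strand. Capitals mark matches to GAAA, any 2 bases and again GAAA, the core of the interferon-stimulated response element, searched on both strands.
Bst2, chr16:18254968-18255217, minus strand: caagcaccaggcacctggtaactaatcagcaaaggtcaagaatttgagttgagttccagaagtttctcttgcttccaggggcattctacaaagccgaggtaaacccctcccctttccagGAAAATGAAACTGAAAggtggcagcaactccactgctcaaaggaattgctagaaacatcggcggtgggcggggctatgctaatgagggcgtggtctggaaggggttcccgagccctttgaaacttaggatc
Oas1a, chr12:41330216-41330465, plus strand: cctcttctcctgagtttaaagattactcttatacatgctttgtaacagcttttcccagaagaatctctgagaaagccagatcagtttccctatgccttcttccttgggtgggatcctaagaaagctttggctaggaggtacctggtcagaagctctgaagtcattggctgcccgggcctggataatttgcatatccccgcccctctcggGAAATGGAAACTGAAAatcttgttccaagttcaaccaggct
Irf7, chr1:205800024-205800273, minus strand: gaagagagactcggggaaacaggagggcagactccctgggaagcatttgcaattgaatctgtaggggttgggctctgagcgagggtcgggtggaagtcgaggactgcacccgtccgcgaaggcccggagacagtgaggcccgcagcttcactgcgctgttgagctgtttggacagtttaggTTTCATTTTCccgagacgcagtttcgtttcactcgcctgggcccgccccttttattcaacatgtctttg
In Bst2 there were 2 overlapping matches, which began 131 and 125 bases before the start, and in Oas1a 2 overlapping matches began 41 and 35 bases before it. Irf7 had 1 match, on the opposite strand. Of the 5 members with a promoter in the RefSeq table, 4 held a match (Ifit3 is the fourth) and Mx1 held 0, beside 3.41% of all 33469 promoters of that length. The shorter symmetric motif TTCNNNGAA was found in the same windows of Bst2 and Oas1a and in 7.67% of all promoters. A match is a description of the letters, not a site shown to be used.

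All levels below are log2 signals of a probe minus the 75th percentile of its array, so 0 is that percentile and a step of 1 is a doubling. A level is thus relative to the other RNA in its fraction and says nothing of molecules in a cell. Between 39.6% and 47.4% of the probes of an array lay well above background, and 17055 features were tested. All 10 hepatocyte markers, from albumin (Alb) to Hnf4a, were well above background on all arrays, and the median of that list lay between 6.22 and 6.94. Markers of pancreatic acinar cells such as the pro-enzyme gene Cpa1 were abundant on 6 arrays: 2c and 8c of experiment 1, all of experiment 2, and 8c of experiment 3. Experiments 1 and 2 were on slide 1 together with 2c and 4c of experiment 3, whose 8c array was on slide 2 with experiments 4 and 5.

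Bst2 was the one member whose 4c arrays lay apart from all others, and it was higher in 4c cells than in either 2c or 8c cells. Its probe lies at chr16:18698676-18698735 on the minus strand of the rn4 assembly and is spotted 2 times. Bst2 had levels of -0.67, -0.64, -1.15, -0.27 and -1.29 in 2c cells of experiments 1 to 5. In 4c cells the levels were 1.87, 0.91, 0.88, 0.76 and 0.71. In 8c cells they were 0.65, -0.18, 0.07, -1.02 and -0.56. Every 4c array lay above every 2c array and every 8c array, while the 8c and 2c arrays overlapped.

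**Figure D1:**
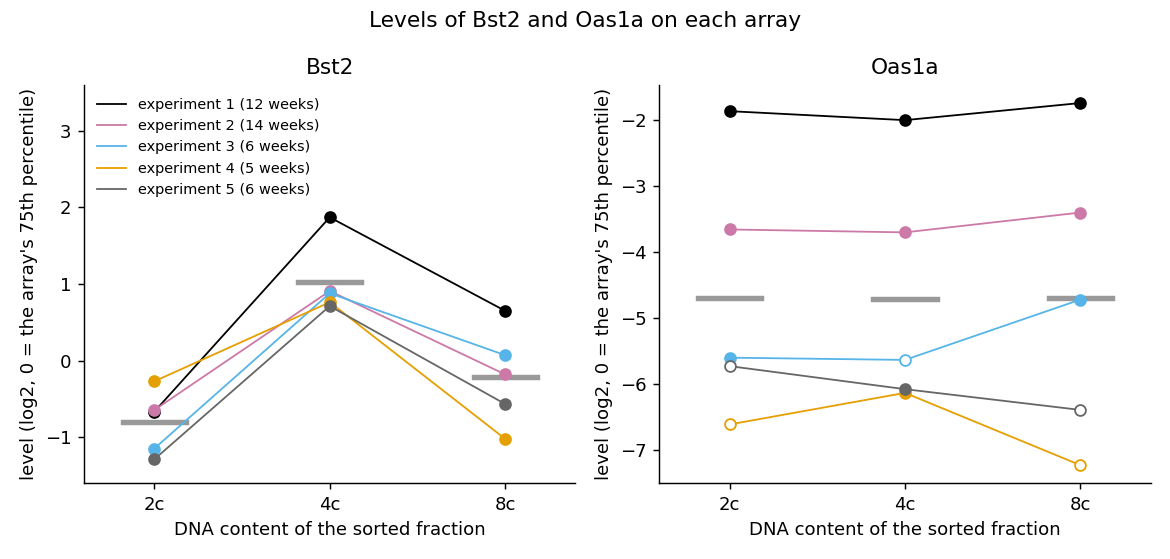
Levels of Bst2 (left) and Oas1a (right) on each of 15 arrays by DNA content, on a log2 scale where 0 is the array's 75th percentile. Lines join the arrays of an experiment, open points are not well above background and grey bars are means of 5 arrays. Bst2 peaks at 4c in all 5 experiments, between 0.71 and 1.87. The Oas1a lines of experiments 1 and 2 are nearly level and lie above the others. Those of experiments 3, 4 and 5 lie closer together and vary more, with 8c minus 4c at 0.91 in experiment 3 and -1.09 in experiment 4.

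In untransformed signal the Bst2 probe read 655 to 2604 units on the 4c arrays, against 149 to 469 units on the 2c arrays and 307 to 1146 units on the 8c arrays. Before scaling, the 4c and 8c arrays thus overlapped in signal. Within an experiment, 4c exceeded 2c by 1.03 to 2.54 on the log2 scale, or 2.05-fold to 5.81-fold, with a mean of 1.83 ± 0.57 (SD, n = 5). The step between 8c and 4c was the other way in all 5 experiments, with a mean difference of -1.24 ± 0.36 (SD, n = 5). For 8c against 2c the mean difference was 0.59 ± 0.83 (SD, n = 5), above 0 in 4 experiments and -0.75 in experiment 4. Experiment 1 had the highest 4c array, 1.87 against 0.91 for the next, and without it the mean 4c minus 2c difference was 1.65. The difference was 2.04 within slide 1, 1.52 within slide 2 and 1.69 without the 6 arrays rich in acinar transcripts.

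Over 17045 features with a value on every array, all 4c arrays lay above all 2c and 8c arrays for 3 features, or 0.0176%. These were Bst2, Thap3 and the uncharacterised LOC103690615, named because they were so few. The difference of the 4c mean from the mean of 2c and 8c was 1.53 for Bst2, the largest of the 17045, against 0.53 for LOC103690615 and 0.38 for Thap3. Bst2 was picked for this pattern, so the rank describes it and tests nothing. Among the 82 other interferon genes tested, 0 met the same rule.

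The other 6 tested members did not share this course. For them the 4c mean differed from the mean of 2c and 8c by -0.34 to 0.05, with the lowest value for Mx1 and the highest for Mx2. In the fits with experiment as a block, 1 of 7 members passed an adjusted p under 0.05 in 4c against 2c (Bst2, higher), beside 1.27% of all features. None passed in 8c against 2c, where 2.37% of features passed, or in 8c against 4c, where 0.651% passed. At an unadjusted p under 0.05 the limma fits called 3 of 7 members in 8c against 2c, 2 in 4c against 2c and 1 in 8c against 4c, beside 15%, 15.9% and 7.76% of all features. The 3 comparisons share their arrays pairwise, and since the members were chosen with them in view nothing is read from these counts. The Bst2 call was lost in 10 of 17 alternative settings, among them leaving out experiment 1, 2, 3 or 5, while its 4c minus 2c difference kept its sign and lay between 1.52 and 2.04.

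Markers of other liver cell types ran in another order across the fractions. All 12 tested Kupffer cell markers were lower in both 8c and 4c than in 2c. A limma adjusted p under 0.05 was reached by 11 of 12 in 8c and 8 of 12 in 4c, beside 2.37% and 1.27% of all features. Clec4f, a Kupffer cell lectin, had a median of 0.88 on 2c arrays, -2.98 on 4c arrays and -4.90 on 8c arrays. The median of the Kupffer cell list ranged from -4.52 to -0.98 on 2c arrays, -5.90 to -4.40 on 4c arrays and -6.50 to -4.99 on 8c arrays. Of 9 tested endothelial markers, 9 were lower in 8c and 8 in 4c than in 2c, and 4 and 3 passed. Of 7 tested stellate cell markers, 7 were lower in 8c and 6 in 4c than in 2c, and 6 passed in each. The endothelial scavenger receptor Stab2 was above background on 4 of 5 2c arrays, 0 of 5 4c arrays and 2 of 5 8c arrays. The stellate cell lectin Colec11 had a median of -1.15 on 2c arrays, -4.73 on 4c arrays and -7.09 on 8c arrays. In such bulk samples fewer cells of a type and less RNA per cell cannot be told apart. Bst2 ran in the opposite order between 2c and 4c. Siglech, the plasmacytoid dendritic cell marker looked for, had no probe by that name. Of 13 lymphocyte and plasma cell markers on the array, 2 to 6 were well above background on an array. The median of the 4 tested ones lay between -4.72 and -3.74 on 2c arrays, -4.81 and -2.93 on 4c arrays and -4.61 and -3.68 on 8c arrays, and 0 of the 4 passed in any comparison of fractions. The T cell marker Cd3e was well above background on 0 of 15 arrays.

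**Figure D2:**
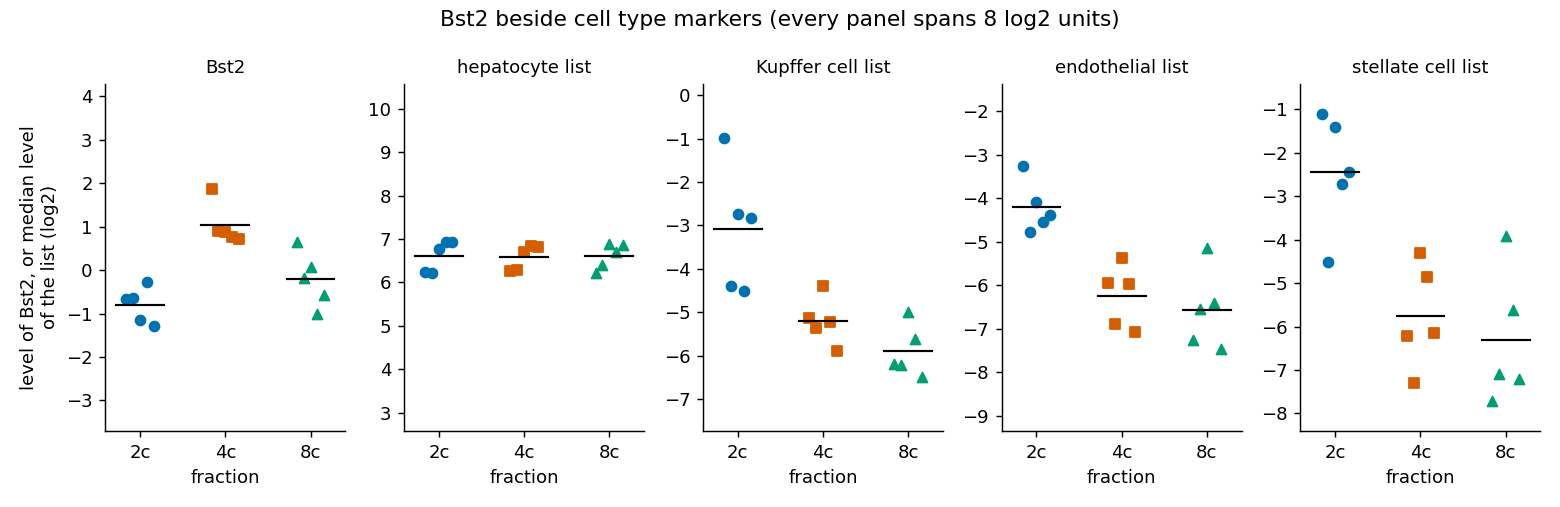
Level of Bst2 and median levels of 4 marker lists on each array, by DNA content, in log2 units, with black bars for means of 5 arrays and each panel spanning the same number of units. Kupffer cell, endothelial and stellate cell medians are highest on the 2c arrays and the hepatocyte median lies between 6.22 and 6.94 throughout, while Bst2 is highest on the 4c arrays.

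Oas1a varied most of all members, and nearly all of it lay between experiments. Its brighter probe had levels of -1.87, -3.66, -5.60, -6.61 and -5.73 in 2c cells of experiments 1 to 5. In 4c cells it had -2.01, -3.71, -5.64, -6.14 and -6.08, and in 8c cells -1.75, -3.41, -4.72, -7.23 and -6.39. The 3 fractions of experiment 1 lay within 0.26 of each other, and all of them lay above every other array. The probe was well above background on all 6 arrays of the older rats of experiments 1 and 2 and on 4 of 9 arrays of the younger rats. A second Oas1a probe showed the same order of experiments. Rat Oas1 genes are close copies of each other, so a probe may also read a neighbour.

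Isg15, the ubiquitin-like modifier, followed the same order. Isg15 had levels of -0.80, -0.89, -1.67, -2.19 and -2.08 in 2c cells, -0.54, -1.01, -2.04, -2.26 and -2.23 in 4c cells, and -0.78, -1.21, -1.88, -2.55 and -2.39 in 8c cells of experiments 1 to 5. Irf7, the transcription factor, had -0.74, -2.03, -2.36, -3.43 and -3.06 in 2c cells, -1.43, -2.07, -3.10, -3.37 and -2.94 in 4c cells, and -1.27, -2.003, -2.46, -3.44 and -2.91 in 8c cells. For both genes the 6 arrays of experiments 1 and 2 lay above the 9 other arrays, and for both the order of the fractions differed between experiments.

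Mx2, a GTPase, had levels of 3.14, 3.08, 2.68, 2.64 and 2.50 in 2c cells, 3.04, 3.11, 2.88, 2.69 and 2.61 in 4c cells, and 3.06, 2.88, 2.79, 2.79 and 2.58 in 8c cells. Its fractions differed little, with 8c minus 2c averaging 0.01 ± 0.15 and 4c minus 2c 0.05 ± 0.11 on the log2 scale (SD, n = 5 each). A second Mx2 probe, assigned to another transcript, was well above background on 11 of 15 arrays and was lower in 4c than in 2c in all 5 experiments, with differences from -1.02 to -0.23. Its 4c array of experiment 3 and its 2c and 4c arrays of experiment 5 were not well above background, so the differences in those experiments rest on signals near background.

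Mx1, the related GTPase, had the largest share of variation that neither fraction nor experiment held, 46.6%. Mx1 had levels of -1.15, -2.29, -2.53, -2.72 and -2.38 in 2c cells, -2.79, -2.84, -2.25, -2.65 and -3.45 in 4c cells, and -2.56, -2.68, -2.87, -2.31 and -3.04 in 8c cells. Its 2c array of experiment 1 lay above all other arrays, and 4c minus 2c ranged from -1.64 to 0.28 over the experiments.

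Ifit2, an RNA-binding protein, was dim but measured on all arrays. Its levels were -3.69, -3.94, -4.15, -3.86 and -4.26 in 2c cells, -3.92, -4.25, -4.00, -4.16 and -4.42 in 4c cells, and -4.38, -4.07, -4.14, -4.18 and -4.82 in 8c cells. The difference of 8c from 2c averaged -0.34 ± 0.29 (SD, n = 5), below 0 in 4 experiments, and the fractions overlapped. Ifit1 and Ifit3 gave levels between -8.86 and -5.61, not well above background apart from the 1 array named above, so no difference is given for them.

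**Figure D3:**
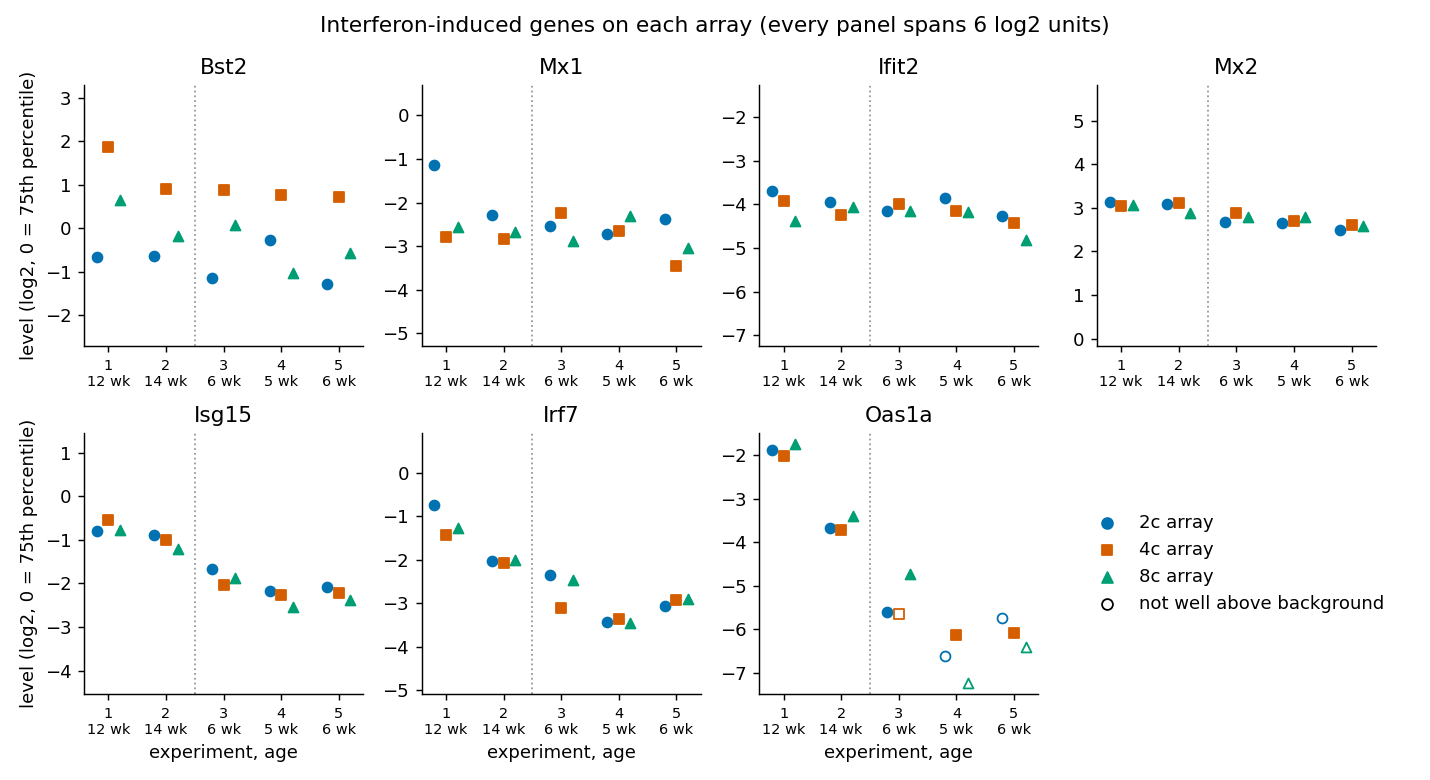
Levels of the 7 members that passed the filter, on a log2 scale where 0 is the array's 75th percentile, by experiment and age in weeks, with 1 marker per array, open where not well above background. The dotted line separates experiments 1 and 2 from experiments 3, 4 and 5. For Isg15, Irf7, Oas1a and, by a slight margin, Mx2 the 6 arrays left of the line lie above the 9 to its right. Bst2 is spread by fraction within each experiment.

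The variation of each gene was divided between fractions, experiments and a remainder. For Bst2, 73.1% of the sum of squares over the 15 arrays lay between the fractions and 14.2% between the experiments. For Oas1a, Isg15, Irf7 and Mx2 the share between experiments was 97.0%, 95.8%, 93.9% and 88.3%, and the share between fractions was at most 2.15%. Ifit2 had 47.2% and Mx1 26.5% between experiments. The median over all features was 54.6% between experiments and 9.37% between fractions, and over the 82 other interferon genes it was 64.8% and 6.01%. These shares have no test.

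**Figure D4:**
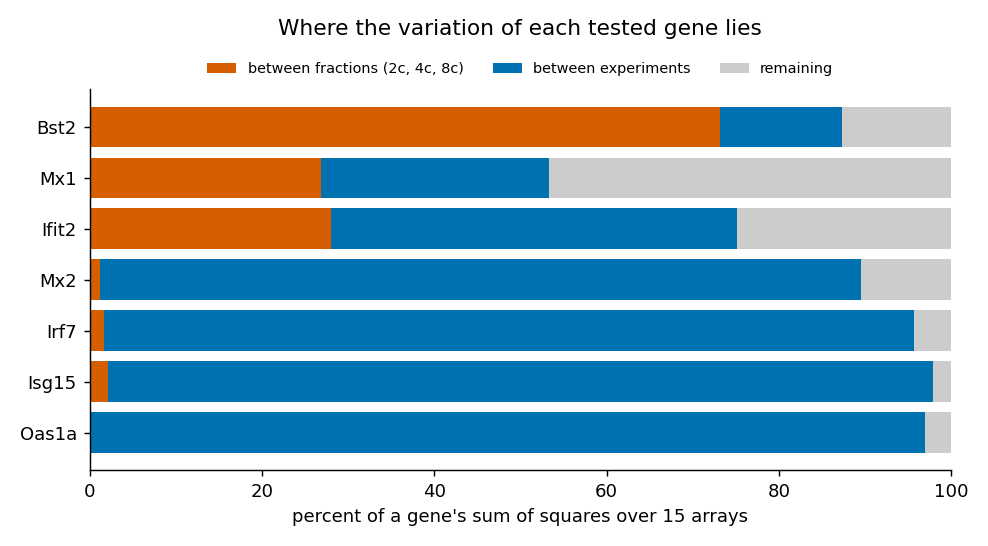
Share of each gene's sum of squares over 15 arrays that lies between fractions, between experiments and in the remainder, in percent. Bst2 has 73.1% between fractions, against 2.15% or less for Oas1a, Isg15, Irf7 and Mx2.

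The rats of experiments 1 and 2 were 12 and 14 weeks old and those of experiments 3, 4 and 5 were 6, 5 and 6 weeks old, which allows a comparison by age that did not use the fractions. All 7 tested members had a higher mean in the older animals. Oas1a met the filter only with the older arrays, since 4 of 9 younger arrays were well above background and 5 were needed. Oas1a averaged -2.73 in older and -6.02 in younger rats, a log2 difference of 3.28 (SE 0.61) or 9.74-fold, and 3.25 with dim arrays set to the lowest reliable signal of their array. Irf7 averaged -1.59 in older and -3.01 in younger rats, a difference of 1.42 (SE 0.35). Isg15 averaged -0.87 in older and -2.14 in younger rats, a difference of 1.27 (SE 0.20). These differences did not pass: limma's adjusted p over all features lay between 0.26 and 0.68 for the 7 members, with n = 2 older and 3 younger experiments. In that fit 0 of 17055 features, or 0%, had an adjusted p under 0.05, while 2257 features and 4 of 7 members (Irf7, Isg15, Mx2 and Oas1a) had an unadjusted p under 0.05.

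The remaining differences by age were 0.53 for Bst2, 0.37 for Mx2, 0.30 for Mx1 and 0.18 for Ifit2. The means of the older experiments lay above all younger means for 5 of 7 members, namely Bst2, Isg15, Mx2, Oas1a and Irf7, beside 14.7% of 17045 features. All older arrays lay above all younger arrays for 4 of 7 members, namely Isg15, Mx2, Oas1a and Irf7, beside 2.29% of features. Both shares are descriptions without a test, and both counts include Oas1a, which met the filter only with the older arrays. Among the 6 members above background on all arrays, the counts were 4 by means and 3 by arrays. For Mx2 the margin was slight, with 2.881 on the lowest older array and 2.88 on the highest younger array. Its second probe overlapped between the ages. Over 14 alternatives the count by arrays was 3 to 5 members. It was 3 of 7 with quantile scaling, another background correction or the mean of a gene's probes. For Bst2 the age difference rested largely on experiment 1, and was 0.24 without it.

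Age coincided with other properties of the arrays. The median level of the acinar marker list was 3.24 on the median older array and -7.64 on the median younger array, with 12 of 12 markers higher in the older experiments. The hepatocyte list lay between 6.22 and 6.41 on older arrays and between 6.69 and 6.94 on younger arrays. Of 7 tested stellate cell markers 6 were lower in older rats, with a median difference of -1.14 beside -0.02 over all features. On the 4c array of experiment 1 the acinar median was -7.47, within the range of the younger arrays, and Oas1a was at -2.01, Irf7 at -1.43 and Isg15 at -0.54, each above all younger arrays. On the 8c array of experiment 3, from 6-week-old rats, the acinar median was -0.03 and Oas1a was at -4.72, the highest of the younger arrays. Irf7 was at -2.46 and Isg15 at -1.88 on that array, below the -2.36 and -1.67 of the 2c array of experiment 3. Within slide 1 the older minus younger difference was 2.81 for Oas1a, 1.17 for Irf7 and 1.05 for Isg15. The only younger arrays on that slide were 2c and 4c of experiment 3. For each of these genes experiment 3 had the highest mean of the younger experiments. With another background correction (normexp) the Oas1a difference was 1.13 and that of Irf7 0.94. Age and the separate isolations of experiments 1 and 2 cannot be told apart. The part of acinar transcripts in the age differences was not tested, and the arrays singled out above do not decide it.

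The wider set of interferon genes was followed in 3 lists from general knowledge: 41 tested effectors, 26 tested genes of sensing and signalling, and 15 tested genes of MHC class I presentation, together 82 of 97 on the array. Between fractions few of them passed. In 8c against 2c, 3 of 82 passed, or 3.66% beside 2.37% of all features, and all 3 were lower, namely Ifitm1, Cxcl10 and Uba7. In 4c against 2c, 3 of 82 passed, or 3.66% beside 1.27% of all features, and all 3 were lower, namely Ifitm2, Irf8 and Uba7. In 8c against 4c, limma called 0 of 82 beside 0.651% of all features, with 8 of 82, or 9.76%, at an unadjusted p under 0.05 beside 7.76% of all features. None of the 82 rose with an adjusted p under 0.05, and the median difference was -0.06 for 8c against 2c and -0.04 for 4c against 2c, beside -0.02 and -0.03 over all features.

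Ifitm1, a membrane protein that hinders virus entry, averaged -3.24 ± 0.38 in 8c and -1.44 ± 1.02 in 2c cells (SD, n = 5 each), a log2 difference of -1.80 (SE 0.36, limma adjusted p = 0.031), and was lower in 8c in 5 of 5 experiments. Its relative Ifitm2 averaged -6.50 ± 1.21 in 4c and -3.34 ± 0.69 in 2c cells (SD, n = 5 each), a difference of -3.15 (SE 0.61, limma adjusted p = 0.0432), lower in 5 of 5 experiments. Ifitm2 was well above background on 1 of 5 4c arrays, 3 of 5 8c arrays and 5 of 5 2c arrays, so it met the filter only with the 2c arrays. Its difference was -2.81 with dim arrays set to the lowest reliable signal of their array. Uba7, the enzyme that activates Isg15 for conjugation, was lower in both 8c and 4c than in 2c cells in 5 of 5 experiments, by 1.31-fold and 1.46-fold with limma adjusted p = 0.00839 and 0.0113. The 2 comparisons share the 2c arrays.

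Cxcl10, a chemokine induced by interferon gamma, averaged -2.15 ± 1.51 in 8c and -1.31 ± 1.22 in 2c cells (SD, n = 5 each), a difference of -0.84 (SE 0.18, limma adjusted p = 0.0402), lower in 8c in 5 of 5 experiments. Irf8, a transcription factor of macrophages and dendritic cells, averaged -6.29 ± 0.52 in 4c and -5.25 ± 0.43 in 2c cells (SD, n = 5 each), a difference of -1.04 (SE 0.21, limma adjusted p = 0.0495), lower in 5 of 5 experiments and above background on 2 of 5 4c arrays and 4 of 5 2c arrays. These falls ran the same way as the Kupffer cell and stellate cell markers above, whose part in them was not tested. With the 6 acinar arrays left out, or with slide in place of experiment as the block, 0 of the 82 genes passed in either comparison. With 1 experiment left out at a time, 0 to 3 of the 82 genes passed in 4c against 2c and 0 or 1 in 8c against 2c, with 0 in both without experiment 5. Without experiment 4 the genes in 4c against 2c were Gbp2, Ifitm2 and Uba7, so Irf8 no longer passed.

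By age most of the 82 differences had the same sign. Of the genes 69 had a higher and 13 a lower mean in the older experiments, with a median difference of 0.34 beside -0.02 over all features. None passed: limma called 0 of 82, with 23, or 28%, at an unadjusted p under 0.05 beside 13.2% of all features, all 23 higher in older rats. The older experiment means lay above all younger means for 34 of 82 genes, or 41.5%, beside 14.7% of all features, and below them for 0. Class I presentation had the largest such share, 10 of 15, against 16 of 41 effectors and 8 of 26 sensing and signalling genes. All older arrays lay above all younger arrays for 18 of 82, or 22%, beside 2.29% of all features. Without the 6 acinar arrays, which leaves the 4c array of experiment 1 as the only older one, that count was 36 of 82, and for the members it was 5 of 7, beside 1952 of 17048 features.

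**Figure D5:**
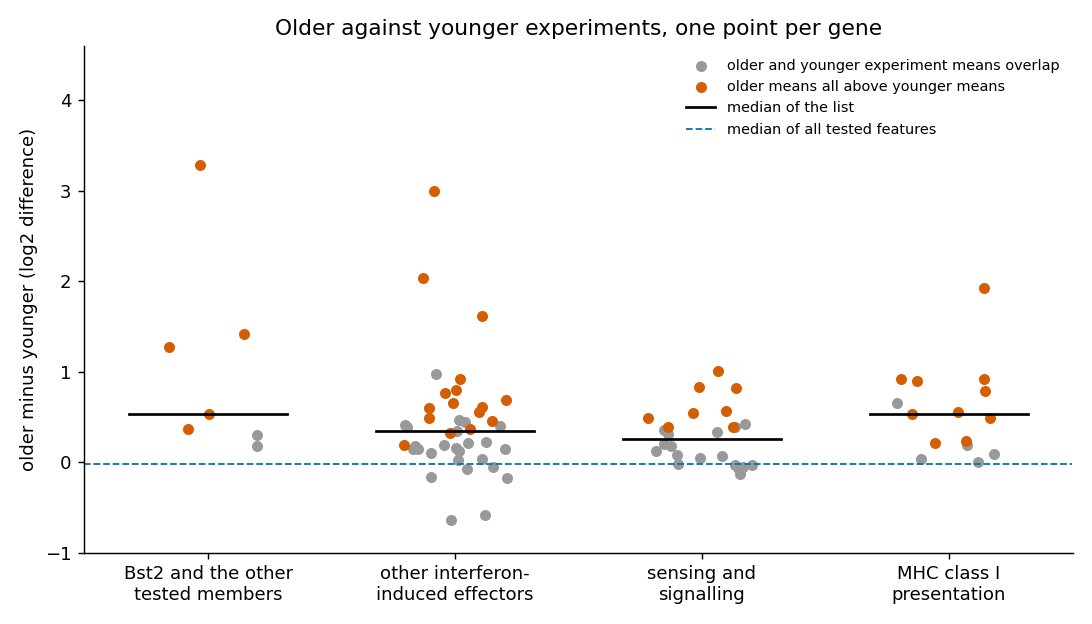
Difference of older minus younger experiments in log2 units, 1 point per gene, for the 7 tested members and the 3 lists of other interferon genes. Black bars are list medians, the dashed line is the median of all tested features at -0.02, and coloured points are genes whose older experiment means all lie above the younger ones. All 7 members and 69 of 82 other genes lie above 0.

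The bright class I genes show the size of this. RT1-A1, a rat class I heavy chain, averaged 4.56 in older and 3.67 in younger rats, a log2 difference of 0.90 (SE 0.18, limma adjusted p = 0.26). B2m, the light chain, averaged 4.39 in older and 3.84 in younger rats, a difference of 0.55 (SE 0.13, limma adjusted p = 0.28). Among effectors, Ifi27l2b differed by 0.92 and Igtp, a GTPase of vacuole defence, by 0.69, while among signalling genes the bright Irf3 and Jak1 differed by -0.07 and -0.02.

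Genes with a course like that of Bst2 were ranked after the means of the experiments were removed, and genes like the other members without that step, so the rankings differ by construction. After each experiment's mean was subtracted, Bst2 correlated over the 15 arrays most closely with Exoc3l4 (Pearson r = 0.99), Pigu (0.98), Icmt (0.95), Dlst (0.95) and Gpd1 (0.95). None of these is in the interferon lists. Pigu belongs to the complex that attaches GPI anchors, Icmt methylates prenylated proteins, Dlst is a subunit of the oxoglutarate dehydrogenase complex and Gpd1 makes glycerol 3-phosphate. Their 4c minus 2c differences were 0.84 for Exoc3l4, 0.37 for Pigu, 0.42 for Icmt, 0.40 for Dlst and 0.24 for Gpd1, against 1.83 for Bst2. By the same measure the other members had r between -0.70 for Mx1 and 0.16 for Mx2 with Bst2.

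The mean of the other 6 tested members correlated over the 15 arrays most closely with RT1-A3 (r = 0.97), Oas1k (0.96), Ube2l6 (0.96), Usp18 (0.96) and RT1-A1 (0.96). Ube2l6 and Usp18 conjugate and remove Isg15, Oas1k is of the Oas1 family, and RT1-A3 and RT1-A1 are class I heavy chain genes whose close copies may share a probe's signal. Oas1k differed by 3.00 and Usp18 by 1.62 between older and younger rats, with limma adjusted p = 0.28 and 0.26. Oas1k was well above background on 6 of 6 older and 1 of 9 younger arrays, and its difference was 2.74 with dim arrays at the lowest reliable signal. Bst2 had r = 0.25 with that mean. Of the 6 averaged genes, Oas1a, Irf7, Isg15 and Mx2 had r between 0.87 and 0.98, Mx1 had 0.52 and Ifit2 0.49. The levels were averaged unscaled, so Oas1a, which varied most, weighed most. These correlations are descriptions: the arrays of an experiment share an isolation and partly a slide, and the genes were ranked for likeness.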

How the data were processed

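RNA from 15 sorted fractions was hybridised to one-colour Cy3 Agilent arrays. The authors deposited scanner files whose intensity values, per the file headers (Agilent Feature Extraction 11.5.1.1; the submitters' processing notes name 10.7.3.1), are background-subtracted and not normalized between arrays. The deposited table of intensities, compared on a log2 scale, matched them within 0.01 for 99.972% of probe values with a signal above 100. It is thus not independent.

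Control and outlier spots were left out, spots of a probe were averaged, and each array's log2 signals were set to the 75th percentile of 16211 probes well above background on all arrays. A gene was represented by its brightest probe well above background on at least 5 of 15 arrays. Limma 3.58.1 in R 4.3.3 fitted fraction with experiment as a block on all 15 arrays, and age (above 10 weeks against below) on experiment means, with two-sided Benjamini-Hochberg adjusted p over 17055 features and a threshold of 0.05. With 2 against 3 experiments an exact permutation test could not go below 0.1. Precision is limited by the number of arrays.

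The fractions of a number share an experiment per the labels, and 15 pairs of arrays of the same experiment deviated together from their group means (median r = 0.59, lowest 0.04), beside -0.13 for other pairs. Nothing says that experiments came from separate animals beyond being called independent.

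The members and the gene lists were chosen with earlier results of these data known. Named are all members, of each list up to 4 genes that passed by size of difference or the 2 brightest where none passed, the 5 genes most like Bst2 and the 5 most like the mean of the other members, and 6 marker genes; others said to be so were added after values were seen. Alternatives varied scaling, background, filter, probes, slide, block, acinar arrays and experiments.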

Additional observations from a re-analysis of the deposited data

Results flagged for a closer look

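Among 27 groups of 5 arrays of the members, 2 held an array far from the other 4 by Dixon's criterion, which chance alone meets in about 1 in 20 groups. Bst2 on the 4c array of experiment 1 was at 1.87, with the nearest 4c array at 0.91. Mx1 on the 2c array of experiment 1 was at -1.15, with the nearest 2c array at -2.29.

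For Mx2 the 8c minus 2c difference was below 0 in both older experiments (-0.07 and -0.20) and above 0 in the 3 younger ones (0.11, 0.15 and 0.08). The older mean lay below the younger mean by a difference of -0.25, and this difference was not tested.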

How the results depend on the processing

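Bst2 kept the sign of its 4c minus 2c difference in all 17 alternatives (1.52 to 2.04) and of its 8c minus 4c difference (-1.62 to -1.10), while 8c minus 2c lay between -0.01 and 0.93. Oas1a, Isg15, Irf7, Mx2 and Bst2 stayed higher in older rats in all alternatives run, from 1.13 to 4.14, 0.92 to 1.63, 0.94 to 1.86, 0.31 to 0.58 and 0.24 to 1.09. For Mx1 and Ifit2 1 alternative each gave a value just below 0, -0.0069 and -0.0099. The median share of the members' sum of squares between experiments was 82.9% to 88.3%.

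Counts of features called were 404 in 8c against 2c, 217 in 4c against 2c, 111 in 8c against 4c and 0 in older against younger rats. Under normexp they were 181, 54, 64 and 1. With no filter they were 229 and 0 in 8c and 4c against 2c. With only probes above background on all arrays they were 219, 130 and 40. With slide as a block they were 91, 5 and 41, within slide 1 0, 0 and 1, within slide 2 0, 0 and 0, and without the acinar arrays 0, 0 and 0. Without the replicate block they were 39, 3 and 0. Leaving out an experiment gave 102 to 274, 3 to 185, 51 to 128, and 0 to 20 for age, where quantile scaling gave 1.

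The number of other interferon genes called was 3 in 8c against 2c. It was 1 with no filter, a gene not among those 3, and 0 under normexp, slide as a block, within either slide, without the replicate block and without the acinar arrays. In 4c against 2c it was 3, with 1 under quantile scaling, with probes above background on all arrays and with the mean of probes, and 0 in those same 6 settings and with no filter. Leaving out an experiment gave counts of 0 to 1 and 0 to 3, not always the same genes. The count of these genes with all older arrays above all younger ones was 18, and it was 29 within slide 1, 36 without the acinar arrays, and 18 to 32 without 1 experiment. The count with non-overlapping means was 34, and it was 52 without the acinar arrays and 38 to 58 without 1 experiment. Fewer arrays make separation easier, as the same counts over all features rose too. Other causes were not tested. For low signals such as Oas1a in younger rats, closeness to background limits the difference.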
